A study of Homo sapiens with 24 samples.

Results

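The RNA levels of 10 genes that set or guard the epithelial state are described here across an RNA sequencing experiment on C-Raf-driven metastasis. They were chosen by symbol from the 60448 symbols, 19203 of them protein-coding, that the count tables list. The 10 members fall into 2 groups. ZEB1, ZEB2, SNAI1, SNAI2, TWIST1 and FOXC2 encode transcription factors that drive epithelial-mesenchymal transition (EMT). GRHL2, OVOL1, ESRP1 and ESRP2 encode factors that keep cells epithelial. All 10 symbols were found in each of the 4 tables.

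EMT is the loss of cell-cell junctions and apical-basal polarity by which epithelial cells become motile. ZEB and SNAIL proteins bind E-box elements in the promoters of junction genes such as CDH1, which encodes E-cadherin, and repress them, and TWIST1 and FOXC2 act in the same programme. GRHL2 activates junction genes and represses ZEB1, OVOL1 is a zinc finger repressor of ZEB1, and the ESRP proteins hold epithelial exon choices in many transcripts. In epithelial cells ZEB1 and GRHL2 repress each other.

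The libraries come from 2 immortalized human prostate epithelial lines, BPH-1 (immortalized with SV40) and RWPE-1 (immortalized with HPV18). The groups were vector control cells (the lentiviral vector ILYW; 3 BPH-1 libraries and 1 RWPE-1 library), parental cells overexpressing C-Raf from a ubiquitin promoter on that vector (3 and 4), and lines grown from metastases that the C-Raf cells formed in immune-deficient NSG mice (6 and 7), so that metastasis-derived cells and their C-Raf parental cells share the transgene. In BPH-1, titles of both groups from before metastasis also carry the tag sGluc, which titles of the BPH-1 metastasis-derived and of all RWPE-1 libraries do not. The metastasis-derived lines were cultured briefly after resection from bone, spine, lymph node or thymus. The site given for each library of the pair numbered R075 is not the same in its title as in its treatment field. No site is used for that pair. The media differ between the lines, so cell line and medium cannot be told apart, and the BPH-1 metastasis-derived libraries sit in a table of their own, so table and stage cannot be told apart within BPH-1.

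The 21 deeper libraries held 20564794 to 41985563 counts in protein-coding genes. The libraries titled BPH1-CRAF BONE R071, R074 and R075 held 464692, 132371 and 111162 and entered none of the main fits. RN7SL1, a small noncoding RNA of the signal recognition particle, took 93.3%, 96.8% and 97.5% of all counts there, 4.60% to 30.3% in the remaining 3 libraries of that group, and at most 0.00932% in the other 18 libraries. The library BONE R072, at 30.3%, also had a TMM scaling factor of 0.589, against 0.942 to 1.10 in the other deeper libraries. All 9 prostate epithelial markers checked (keratins, EPCAM, CDH1 and TP63) had counts in every deeper library except 1 of the RWPE-1 metastasis-derived ones, which had 8. Their levels were not constant. Between metastasis-derived and C-Raf parental BPH-1 libraries 5 of the 9 were called lower and 2 higher by edgeR, against 16.8% and 20.9% of all genes. KRT8 went from 975 to 1007 CPM down to 84.4 to 195, and KRT14 from 320 to 332 up to 3141 to 6619. In RWPE-1 0 of the 9 were called. Of markers of other cells, the summed level of 9 fibroblast genes was 9.54 to 24.4 CPM (counts scaled to a common total of protein-coding counts, TMM-scaled in the deeper libraries) in C-Raf parental and 13.6 to 67.1 in metastasis-derived RWPE-1 cells, and 12.2 to 12.5 against 53.2 to 73.7 in BPH-1. In those BPH-1 metastasis-derived libraries COL1A1 alone had 50.3 to 70.8 CPM, and COL1A2 at most 0.422. The BPH-1 vector control sum was 27.4 to 29.9 CPM. The sum of 8 blood cell genes was 3.35 to 4.01 CPM in C-Raf parental and 5.56 to 5.86 in deeper metastasis-derived BPH-1 libraries, where 2 of 3 tested were called higher, the macrophage receptor gene CSF1R (0.626 to 1.30 against 2.26 to 3.55 CPM) and SPI1, while PTPRC, the pan-leukocyte marker, had at most 0.0383 CPM. CD14, a monocyte and macrophage gene of the same list, went the other way in BPH-1. It had 2.36 to 2.57 CPM in C-Raf parental and 0.908 to 2.05 in deeper metastasis-derived libraries, while 0 of the 3 tested were called lower. In RWPE-1 the sum of blood cell genes was 1.53 to 1.91 against 1.36 to 3.03 CPM. The sum of 6 endothelial genes was 1.64 to 1.73 against 3.11 to 41.0 CPM in BPH-1, with VWF, the von Willebrand factor gene, at up to 40.2, and 0.0539 to 0.371 against 0.0244 to 0.426 in RWPE-1. Of 2 endothelial genes tested in BPH-1, 1 was called higher and 1 lower. CDH5, the endothelial cadherin gene, went the other way from VWF. It had 0.802 to 0.870 CPM in C-Raf parental and 0.230 to 0.317 in deeper metastasis-derived BPH-1 libraries. PECAM1, an endothelial adhesion gene, had at most 5 counts in the deeper BPH-1 metastasis-derived libraries. Whether other cells account for any value below was not tested, and in bulk RNA fewer cells of a type and less RNA per cell cannot be told apart.

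The genomic sequence in which the ZEB1 comparison is set is the stretch ahead of one of its start sites. RefSeq (GRCh38.p14) gives 7 start windows for ZEB1, and the one nearest the annotated gene start is chr10:31318167-31318416 on the plus strand. It also lies within exons of the antisense gene ZEB1-AS1. The capitals mark the E-box, here searched as CACCTG on either strand (CAGGTG is its reverse complement), and this window holds 1 match, which begins 57 bases before the start.

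ZEB1: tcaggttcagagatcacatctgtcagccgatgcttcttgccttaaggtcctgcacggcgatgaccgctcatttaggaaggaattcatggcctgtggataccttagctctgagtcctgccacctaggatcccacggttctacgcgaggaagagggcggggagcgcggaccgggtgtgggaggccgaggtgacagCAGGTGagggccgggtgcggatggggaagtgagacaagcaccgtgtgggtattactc

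CRB3, which encodes the Crumbs polarity protein and is a textbook target of EMT repressors, is shown because, of the junction and polarity genes called lower in metastasis-derived lines over both cell lines, it had the most E-boxes in a window. Its window holds 5 matches, which begin 228, 208, 147, 89 and 60 bases before the start site used for that window. The stretches around them are chr19:6464031-6464060, chr19:6464051-6464080, chr19:6464112-6464141, chr19:6464170-6464199 and chr19:6464199-6464228 on the plus strand, in the order of the lines that follow. The last stretch lies for 15 of its 30 bases, and the others wholly, within an exon of CRB3 itself (chr19:6463777-6464213). That exon begins at the annotated gene start, so all these matches lie downstream of the annotated start. It ends inside the last match, after the letters CAG, so that match spans the splice donor site of the exon.
CRB3 match at 228: atgctcgcaatgCAGGTGtaaggtccccct
CRB3 match at 208: aggtccccctcaCACCTGcgcgcttccgcg
CRB3 match at 147: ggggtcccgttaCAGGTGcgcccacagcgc
CRB3 match at 89: ctcagcgaggctCAGGTGcacaagccggaa
CRB3 match at 60: agtgcgctctccCAGGTGagtgactaaact
Of all 35116 windows of 250 bases, 17.5% held a match, and by gene 20.6% of 27305 genes did. Of 22 junction and polarity genes listed for this work, 12 had a window and 8 of these held a match. The sequences describe letters in a window, not binding. ZEB2 also had a window, which holds no match, and SNAI1, SNAI2, TWIST1, FOXC2, GRHL2, OVOL1, ESRP1 and ESRP2 had none.

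ZEB1 separated the 3 stages of RWPE-1 without overlap. It had 0.398 CPM in the vector control library (13 counts; 95% Wilson interval 0.232 to 0.680). The 4 C-Raf parental libraries had 2.88, 3.21, 6.07 and 5.76 CPM, and the 7 metastasis-derived libraries had 9.12 at the lowest, 16.4 at the median and 23.6 at the highest. Every metastasis-derived library was above every C-Raf parental library, and every C-Raf parental library was above the vector control.

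**Figure D1:**
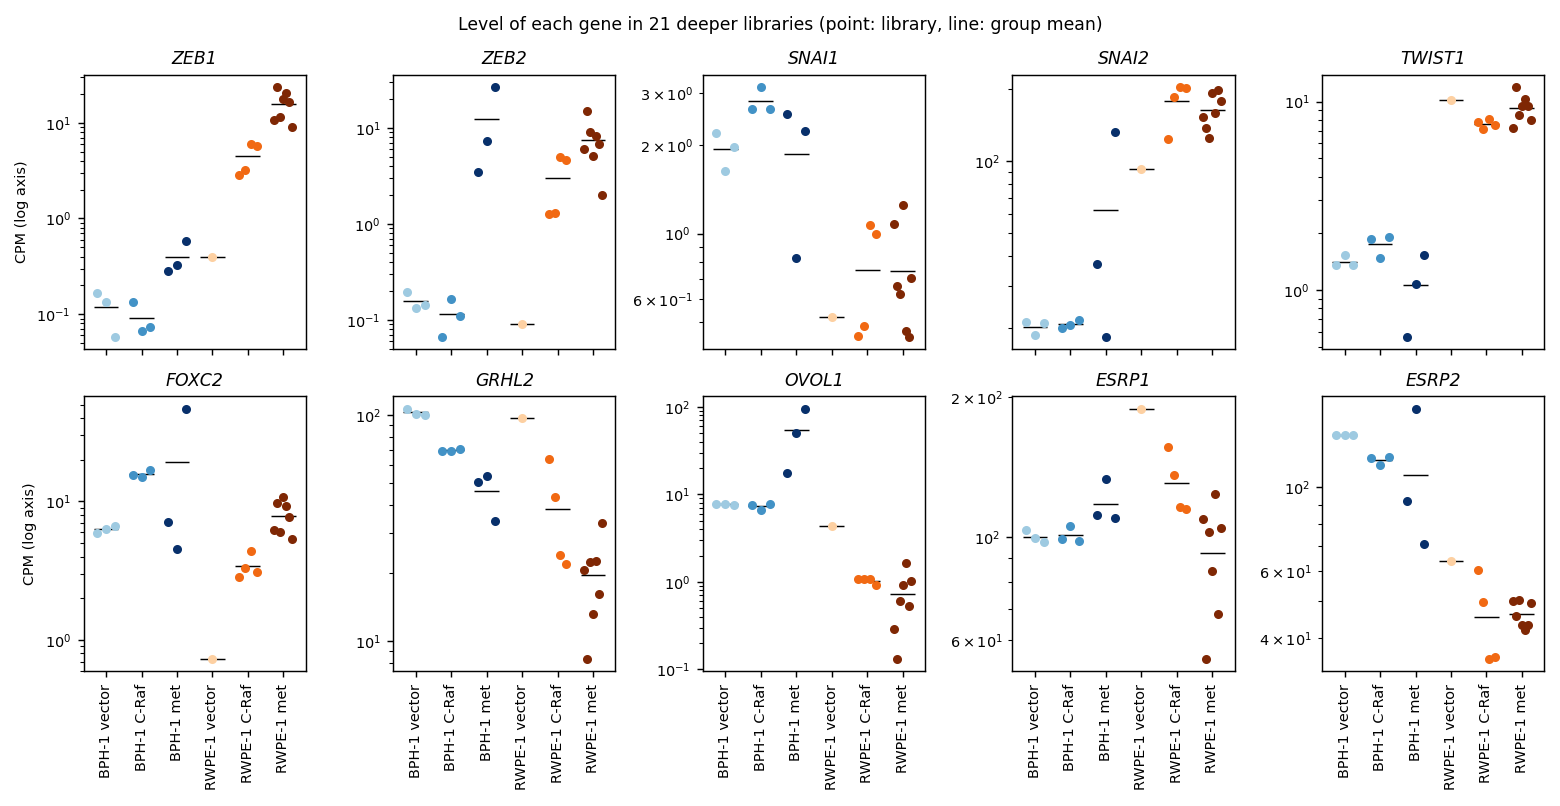
Level of each of the 10 genes in the 21 deeper libraries, with CPM on a log axis, the 6 groups on the x axis, a point for each library and a line at the group mean. ZEB1 rises in steps across the RWPE-1 groups, from 0.398 CPM in the vector control to 9.12 or more in all 7 metastasis-derived libraries, and stays at or below 0.575 CPM in BPH-1.

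In BPH-1, ZEB1 was close to absent. It had 2 to 6 counts in the vector control libraries, 2 to 4 in the C-Raf parental libraries and 4 to 15 in the deeper metastasis-derived libraries, none above 0.575 CPM. It did not pass the filter on low counts in either BPH-1 comparison. Over the libraries with no metastasis history, RWPE-1 had 4.38 ± 0.66 log2 units more ZEB1 than BPH-1 (SE; edgeR quasi-likelihood test, adjusted p = 0.00011). This set 1 library with vector alone and 4 with C-Raf in RWPE-1 against 3 and 3 in BPH-1. With 1 line of each kind, the p-values of all comparisons between the lines measure only the spread between these libraries. The mean levels were 0.398 against 0.119 CPM in vector control and 4.48 against 0.0914 CPM in C-Raf parental cells.

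Over both lines, ZEB1 was the only member that passed the test between metastasis-derived and C-Raf parental lines. Its log2 fold change was 1.87 ± 0.37 (SE; edgeR, adjusted p = 0.0109), which is 3.65-fold, and it kept that side of the threshold in all 28 alternative fits in which it was tested. Of all 15224 genes tested, 2.5% were called in this comparison, 1.77% higher and 0.736% lower. DESeq2 called 3 members, ZEB1 with ZEB2 and GRHL2, against 6.23% of all genes. Within RWPE-1 alone the ZEB1 change was of the same size, at 1.80 ± 0.32 (3.49-fold), and missed the threshold in edgeR (adjusted p = 0.0624). DESeq2 called it (adjusted p = 2.17e-06).

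ZEB1-AS1 overlaps ZEB1 on the opposite strand, and whether counting used strand is not given in the sources used here, so reads of the 2 genes cannot be fully told apart. ZEB1-AS1 had 117 counts in the RWPE-1 vector control, 154 to 216 in C-Raf parental and 152 to 450 in metastasis-derived RWPE-1 libraries. The counting program, RSEM, divides reads that match several genes, and ZEB1 expected counts were not whole numbers in any of the 12 RWPE-1 libraries. FOXC2-AS1 and OVOL1-AS1, opposite FOXC2 and OVOL1, had at most 12 and 7 counts in any library.

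ZEB2, the close relative of ZEB1, also differed in level along the RWPE-1 groups. The vector control held 3 counts (0.0918 CPM). The C-Raf parental libraries had 1.26, 1.30, 4.95 and 4.65 CPM, so replicates 1 and 2 lay well below replicates 3 and 4. The metastasis-derived libraries ran from 2.02 through a median of 6.77 to 14.9 CPM and overlapped the C-Raf parental range. The mean CPM of the C-Raf parental libraries was 33.1 times that of the vector control, with a counting interval of 11.3 to 97.3 from those 3 counts. The metastasis-derived minus parental difference in RWPE-1 was 1.29 ± 0.53 log2 units and did not pass the test (edgeR, adjusted p = 0.563).

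In BPH-1, ZEB2 went from near absence to a measurable level. It had 4 to 7 counts in the vector control libraries and 2, 5 and 3 counts in the C-Raf parental libraries. The metastasis-derived libraries BONE R069, BONE R072 and THYMUS R075 held 100, 89 and 698 counts, or 3.53, 7.35 and 26.8 CPM. No metastasis-derived library came near the parental range. ZEB2 was called higher, with a log2 fold change of 6.76 ± 0.99 (edgeR, adjusted p = 0.00461). The parental side of that value rests on 10 counts in all. ZEB2 passed the filter on low counts only through the metastasis-derived libraries, so a lower level could not have been called. It did not pass that filter between BPH-1 C-Raf parental and vector control. With at least 10 counts required in every library it was not tested.

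The expected counts of ZEB2 were not whole numbers in all 6 BPH-1 metastasis-derived libraries and were whole in the other 18 libraries, RWPE-1 included. The 3 low-depth libraries held 351, 64 and 77 ZEB2 counts, or 755, 483 and 693 CPM of protein-coding counts (95% Wilson intervals 680 to 839, 379 to 617 and 554 to 866, which cover counting error only). In these same libraries SPI1, a transcription factor of blood cells, had 113 to 570 CPM, against 0.6 to 1.46 in the deeper metastasis-derived libraries and at most 0.0334 in the BPH-1 parental and vector control libraries, while PTPRC, CD3E, CD14, LYZ and CSF1R had 0 counts. The globin genes HBB and HBA1 each had at most 15 counts per low-depth library, at 7.55 to 81.0 and 7.55 to 54.0 CPM, so that 3 of the 8 blood cell genes were above 0 in each, and the endothelial gene VWF had at most 10 counts there and PECAM1 at most 8. The 3 libraries with most RN7SL1 had more ZEB2 than the other 9 BPH-1 libraries, whereas among the 3 deeper metastasis-derived libraries the one with least RN7SL1, THYMUS R075, had most ZEB2. The part of RN7SL1-rich libraries, shared reads or other cells in the ZEB2 result was not tested.

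**Figure D2:**
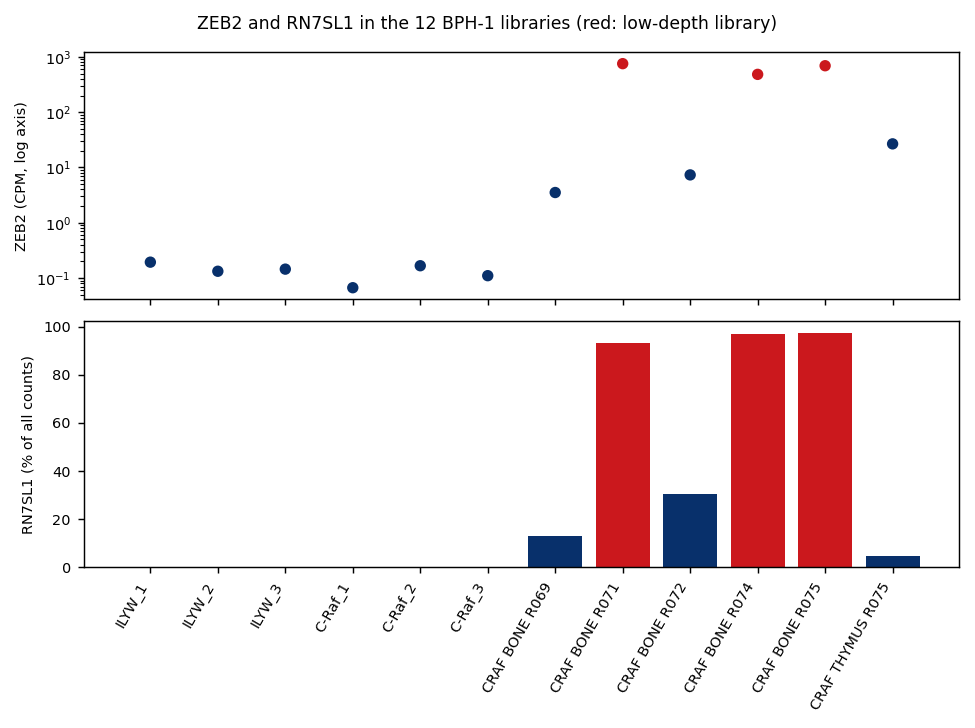
ZEB2 level in CPM on a log axis (upper panel) and the share of all counts taken by RN7SL1 in percent (lower panel) in each of the 12 BPH-1 libraries, low-depth libraries in red. The 6 libraries from before metastasis lie below 0.2 CPM with almost no RN7SL1, and the 3 low-depth libraries have 483 to 755 CPM at 93.3% to 97.5% RN7SL1.

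SNAI1, which encodes Snail, was low throughout. In BPH-1 it had 2.19, 1.63 and 1.97 CPM in the vector control and 2.64, 3.14 and 2.65 CPM in the C-Raf parental libraries, which did not overlap. The change was 0.54 ± 0.15 log2 units (edgeR, adjusted p = 0.00356). The deeper metastasis-derived libraries had 2.54, 0.825 and 2.22 CPM, all below the parental range, and the difference did not pass the test (log2 -0.52 ± 0.42, adjusted p = 0.358). In RWPE-1 no library exceeded 1.25 CPM and the difference between metastasis-derived and parental lines was -0.01 ± 0.37 log2 units.

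SNAI2, which encodes Slug, a factor that basal epithelial cells also express, was the most abundant EMT factor. On a per-length scale (CPM per kb of transcript) its mean level in RWPE-1 C-Raf parental libraries was 73.1 ± 15.4 (SD, n = 4), the first of the 10 members, and ESRP1 came next with 34.3 ± 5.10. In BPH-1 C-Raf parental libraries the first was ESRP2 with 34.97 ± 0.923 (n = 3), followed by ESRP1 with 26.5 ± 1.02, and SNAI2 had 8.56 ± 0.336. SNAI2 was 7.16-fold higher in RWPE-1 than in BPH-1 before metastasis (log2 2.84 ± 0.19, edgeR, adjusted p = 1.75e-07). That p-value too measures only the spread between libraries of these lines.

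SNAI2 was not called with C-Raf in BPH-1, where the vector control had 21.1, 18.8 and 20.9 CPM and the C-Raf parental libraries 20.1, 20.6 and 21.7 CPM. In RWPE-1 the vector control had 92.1 CPM and the C-Raf parental libraries 123, 184, 203 and 200.4. The RWPE-1 metastasis-derived libraries spanned 124 to 197 CPM around a median of 159, inside the parental range. In the BPH-1 metastasis-derived libraries SNAI2 had 37.0, 18.4 and 132 CPM, and the difference of 1.62 ± 0.67 log2 units did not pass the test (edgeR, adjusted p = 0.0997). Without BONE R072 it was 2.04 and passed (adjusted p = 0.0195), and without THYMUS R075 it was 0.49 (adjusted p = 0.221).

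TWIST1 had 10.2 CPM in the RWPE-1 vector control, 7.83, 7.17, 8.09 and 7.47 in the C-Raf parental libraries, and 7.27 to 11.9 with a median of 9.47 in the metastasis-derived libraries. The 4 parental libraries lay below the vector control and overlapped the metastasis-derived ones. In BPH-1 it was lower, with 1.36 to 1.92 CPM in vector control and parental cells and 0.564, 1.07 and 1.53 CPM in metastasis-derived cells. RWPE-1 held 5.17-fold more than BPH-1 (log2 2.37 ± 0.15, edgeR, adjusted p = 1.02e-07).

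FOXC2, a forkhead factor of mesenchymal tissues, was higher in the C-Raf parental libraries than in the vector control of both lines. In BPH-1 it had 5.87, 6.37 and 6.67 CPM in vector control and 15.6, 15.1 and 16.8 CPM in C-Raf parental cells. This was a rise of 1.33 ± 0.08 log2 units (2.52-fold, edgeR, adjusted p = 5.90e-15). In RWPE-1 the vector control had 0.734 CPM (24 counts, 95% Wilson interval 0.493 to 1.09) and the C-Raf parental libraries 2.85, 3.32, 4.36 and 3.11 CPM, all above it.

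In RWPE-1 the FOXC2 level of the metastasis-derived libraries, 5.36 to 10.9 CPM with a median of 7.69, lay above every parental library. The difference was 1.21 ± 0.22 log2 units (2.31-fold), missed the threshold in edgeR (adjusted p = 0.0757) and passed it in DESeq2 (adjusted p = 6.22e-05). In BPH-1 the metastasis-derived libraries split, with 7.09 and 4.54 CPM in BONE R069 and BONE R072, below all parental libraries, and 46.5 CPM in THYMUS R075, above them. The mean difference was 0.33 ± 0.82 log2 units (edgeR, adjusted p = 0.767), and without THYMUS R075 it was -1.36 and passed the test (adjusted p = 0.00812).

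Among the epithelial guardians, GRHL2 fell with C-Raf in BPH-1 and was lower in RWPE-1. The BPH-1 vector control libraries had 106, 101 and 100.4 CPM and the C-Raf parental libraries 69.4, 69.2 and 70.6 CPM, a fall of 0.55 ± 0.03 on the log2 scale (1.47-fold, edgeR, adjusted p = 2.10e-14). In RWPE-1 the vector control had 96.9 CPM and the C-Raf parental libraries 64.0, 43.5, 24.1 and 21.8 CPM. Replicates 1 and 2 again stood apart from 3 and 4, in the opposite order to ZEB1 and ZEB2.

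GRHL2 was lower again in metastasis-derived lines, without passing the test in either line. The BPH-1 libraries had 50.5, 53.9 and 34.0 CPM, all below the parental range, and the log2 difference was -0.53 ± 0.22 (edgeR, adjusted p = 0.103). The RWPE-1 libraries had 8.33 to 33.4 CPM with a median of 20.6 and overlapped parental replicates, and the log2 difference was -0.97 ± 0.35 (adjusted p = 0.467). Over both lines it was -0.85 ± 0.25 (adjusted p = 0.0709), and 6 of 29 alternative fits called it, with log2 values between -0.98 and -0.65 over all of them.

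OVOL1, the zinc finger repressor, was called higher in BPH-1 metastasis-derived cells. It had 7.84, 7.80 and 7.63 CPM in vector control, 7.49, 6.65 and 7.73 CPM in C-Raf parental and 17.3, 50.6 and 94.6 CPM in metastasis-derived libraries, a rise of 2.95 ± 0.59 log2 units (7.71-fold, edgeR, adjusted p = 0.0111). Leaving out any 1 of the C-Raf parental libraries took the call away (adjusted p = 0.0523 to 0.0555, log2 2.86 to 2.97), as did keeping the low-depth libraries (log2 2.24, adjusted p = 0.0783). In RWPE-1 the vector control had 4.34 CPM, the C-Raf parental libraries 1.08, 1.08, 1.07 and 0.913, and the metastasis-derived libraries 0.133 to 1.65 with a median of 0.600. All 4 parental libraries were below the vector control, and the metastasis-derived minus parental difference of -0.49 ± 0.50 did not pass the test.

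The splicing factors ESRP1 and ESRP2 had high levels in every group. Gene counts give their level and say nothing of splicing. ESRP1 in BPH-1 had 97.5 to 103 CPM in vector control, 98.2 to 105 in C-Raf parental and 111, 133 and 109.5 CPM in metastasis-derived libraries, without a called change. In RWPE-1 it had 188 CPM in the vector control, 156, 136, 116 and 115 in the C-Raf parental libraries and 54.7 to 123 with a median of 103 in metastasis-derived lines. The last difference was -0.50 ± 0.19 log2 units (edgeR, adjusted p = 0.526). The LN1B line, which had the lowest ESRP1, also had the highest ZEB1, ZEB2 and TWIST1 and the lowest GRHL2 and OVOL1 of the 12 RWPE-1 libraries.

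ESRP2 fell slightly with C-Raf in BPH-1, from 137, 138 and 137 to 119.7, 115 and 121 CPM (-0.21 ± 0.03 log2 units, edgeR, adjusted p = 5.56e-07). The BPH-1 metastasis-derived libraries scattered around that level, with 91.9, 161 and 71.1 CPM. In RWPE-1 it had 63.9 CPM in the vector control, 60.6, 49.8, 35.3 and 35.7 in the parental and 42.0 to 50.5 in the metastasis-derived libraries. Its counts were not whole numbers in the 21 deeper libraries, and it overlaps NFATC3 on the opposite strand, a gene with 860 to 2810 counts there.

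C-Raf parental cells were then compared with vector control for all members. In BPH-1, 8 of the 10 members passed the filter on low counts and 4 were called, FOXC2 and SNAI1 higher and GRHL2 and ESRP2 lower. In that comparison 59.8% of all 13221 genes were called, 30.4% higher and 29.4% lower, and 51.3% by DESeq2, which called 4 members too, so the share of members lies near the background. The ranges of the 2 groups did not overlap for the same 4 members, against 64.4% of 12238 genes, 32.8% higher and 31.6% lower. The replicates of BPH-1 differ little (biological coefficient of variation 2.43%), and nothing in the labels says that they are separate cultures, so these p-values measure only the spread between these libraries, which may be technical. In RWPE-1 there was 1 vector control library and no test. There, 5 members differed by more than a fold of 2, ZEB1 (log2 3.23), ZEB2 (4.07, a mean of log2 CPM with a prior count of 2, unlike the ratio of mean CPM given above) and FOXC2 (2.11) higher and GRHL2 (-1.48) and OVOL1 (-2.01) lower, while 8.84% of 11900 genes did so, 6.44% higher and 2.4% lower. ZEB1, ZEB2, FOXC2, OVOL1 and GRHL2 had the same direction in the C-Raf parental library of the vector control's own table and in the 3 of the other table. The log2 differences, own table first, were 2.68 and 3.42 for ZEB1, 3.12 and 4.39 for ZEB2 and 1.87 and 2.19 for FOXC2. For OVOL1 they were -1.95 and -2.03, and for GRHL2 -0.60 and -1.77.

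Over both lines together, edgeR called 0 of the 10 members between C-Raf parental and vector control, with 0.815% of all genes called, 0.42% higher and 0.394% lower. At an unadjusted p below 0.05 there were 3, ZEB2, FOXC2 and GRHL2, and 1434 of all 15224 genes, and DESeq2 called 1, ZEB2, against 3.0% of all genes. FOXC2 was called when only vector control and C-Raf parental libraries entered the fit (log2 1.56, adjusted p = 0.000528).

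The metastasis-derived lines gave few calls in RWPE-1 and many in BPH-1. In RWPE-1 edgeR called 0 of 10 members, and 0.0986% of 13178 genes, 0.0759% higher and 0.0228% lower. At an unadjusted p below 0.05 there were 5 members, ZEB1, ZEB2, FOXC2, GRHL2 and ESRP1, and 1036 of the 13178 genes, and DESeq2 called 2, ZEB1 and FOXC2, against 1.28% of genes. ZEB1 and FOXC2 were also the members whose metastasis-derived libraries all lay above the parental ones, which held for 0.7% of 11998 genes with a mean of at least 1 CPM, while the reverse held for 0.983% (1.68% in either direction). Without the library Bone5, in which the fibroblast collagen COL3A1 reached 22.0 CPM, ZEB1 differed by 1.79 (adjusted p = 0.126) and FOXC2 by 1.21 log2 units (adjusted p = 0.148).

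In BPH-1, 9 of the 10 members were tested and 2 were called, ZEB2 and OVOL1, both higher, against 37.7% of 13444 genes called, 20.9% higher and 16.8% lower. DESeq2 called 3, SNAI2 being the other, against 47.2% of genes. The ranges of metastasis-derived and parental libraries did not overlap for 5 members, against 60.2% of 12731 genes, 27.5% higher and 32.7% lower. ZEB2, OVOL1 and ESRP1 were higher and SNAI1 and GRHL2 lower. ZEB2 reached the mean of 1 CPM needed for this count only through its metastasis-derived libraries. Without BONE R072, 5 members were called, since GRHL2 (-0.69), ESRP2 (-0.51) and SNAI2 then joined. The biological coefficient of variation was 35.3% in this fit, against 2.43% between BPH-1 C-Raf parental and vector control. In both lines the metastasis-derived libraries share parental cells, so p-values against the C-Raf parental libraries measure only the spread between these libraries.

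**Figure D3:**
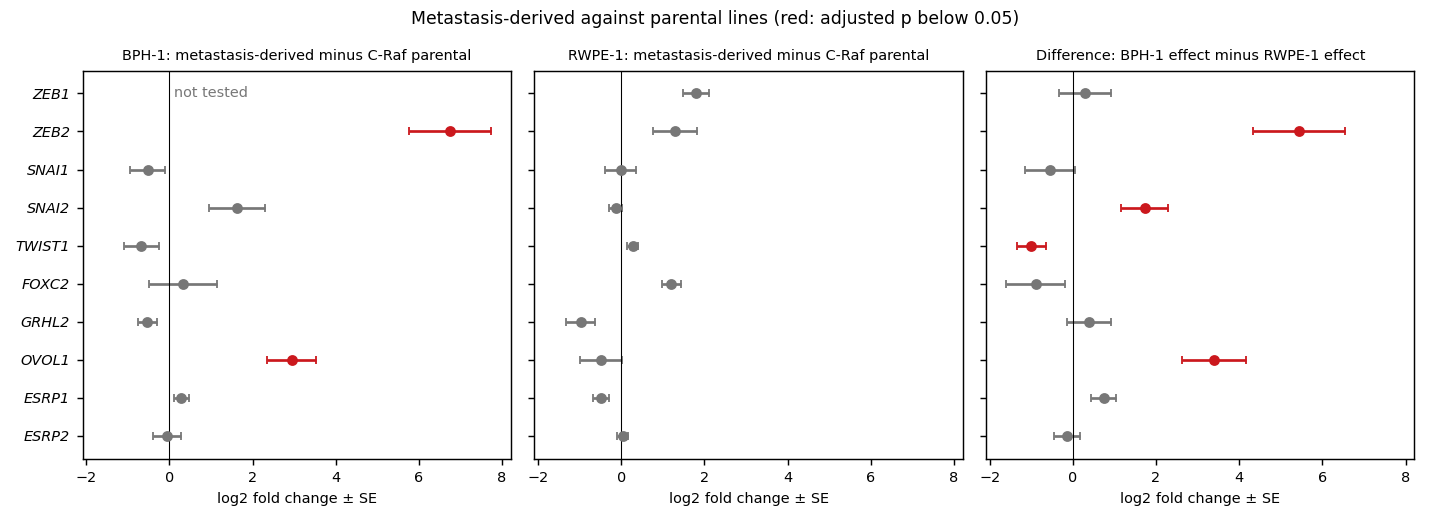
Log2 fold change with its SE for each gene between metastasis-derived and C-Raf parental cells in BPH-1 and RWPE-1, and the difference between these effects, on a shared x axis. ZEB2 and OVOL1 in BPH-1 are the called genes of the single lines, and the difference between the lines is called for ZEB2, SNAI2, TWIST1 and OVOL1.

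The metastasis effect itself differed between the lines for 4 members, against 44.5% of 14259 genes, with 23.5% called higher. DESeq2 called 5, ESRP1 being the other, against 48.9%. The effect in BPH-1 exceeded that in RWPE-1 by 5.45 ± 1.11 log2 units for ZEB2, 3.39 ± 0.77 for OVOL1 and 1.72 ± 0.56 for SNAI2, and fell short of it for TWIST1 (-1.001 ± 0.35). Adjusted p-values from edgeR were 0.000975, 0.00218, 0.0205 and 0.0298. SNAI2 lost the call without BPH-1 C-Raf parental replicate 1 or THYMUS R075 (0.57, adjusted p = 0.146), and TWIST1 lost it without any of 4 single libraries (BPH-1 C-Raf parental replicates 1 and 3, RWPE-1 C-Raf parental replicate 2 and BONE R069), while keeping the low-depth libraries took both calls away. ESRP1 stood at the threshold (0.74 ± 0.29, adjusted p = 0.0502). FOXC2 was not called (-0.90 ± 0.72, adjusted p = 0.327) but gained a call in 1 of 23 alternative fits. Its values ran from -2.62 to -0.44 when 1 library was left out. For ZEB1 the difference between the lines was 0.29 ± 0.63 and not called. Its BPH-1 side rests on 2 to 4 counts in parental and 4 to 15 in metastasis-derived libraries, so the test cannot show whether the lines agree.

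Over the same libraries with no metastasis history the 2 lines differed for 9 of 10 members, against 75.5% of 14331 genes, 38.1% higher and 37.4% lower in RWPE-1. DESeq2 called all 10, against 77.1%. RWPE-1 had more ZEB1, ZEB2 (3.41 ± 0.93), SNAI2, TWIST1 and ESRP1 (0.55 ± 0.11), and BPH-1 had more SNAI1 (-1.89 ± 0.26), FOXC2 (-2.41 ± 0.17), OVOL1 (-2.11 ± 0.31) and ESRP2 (-1.29 ± 0.14). All values are log2 RWPE-1 minus BPH-1 and each was called by edgeR. ZEB2 did not have this direction in vector control cells, where its mean was 0.0918 CPM in RWPE-1 and 0.157 in BPH-1, against 3.04 and 0.115 in C-Raf parental cells. GRHL2 did not differ beyond the threshold (-0.60 ± 0.27, adjusted p = 0.0627). EMT factors and guardians thus stood on both sides of this comparison.

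Across the 12 RWPE-1 libraries several members' log2 levels followed each other, as a description over libraries that span 3 stages and share parental cells. ZEB1 and FOXC2 had the highest Pearson r of all pairs of members (0.985), and each was the protein-coding gene most like the other among 11994. ZEB1 had r = 0.941 with ZEB2 and -0.901 with GRHL2, and GRHL2 had 0.918 with ESRP1. TWIST1 followed none of these closely, with r = 0.233 for ZEB1 and 0.157 for ZEB2, and SNAI2 and OVOL1 had r = -0.248. Outside the members, the most similar genes were CDS1 and ATP8B1 for GRHL2 (0.981 and 0.966), ZNF585B for ZEB1 (0.971), P3H1 and TTYH3 for ZEB2 (0.954 and 0.948), EVA1A and RECQL for SNAI2 (0.972 and 0.962) and SH3YL1 and NTF4 for ESRP1 (0.973 and 0.963). For OVOL1 they were DLG3 and GOLGA2 (0.934 and 0.923), for ESRP2 GLDC and FANCI (0.970 and 0.969), and for TWIST1 FDXR and GRHL3 (0.869 and 0.844).

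**Figure D4:**
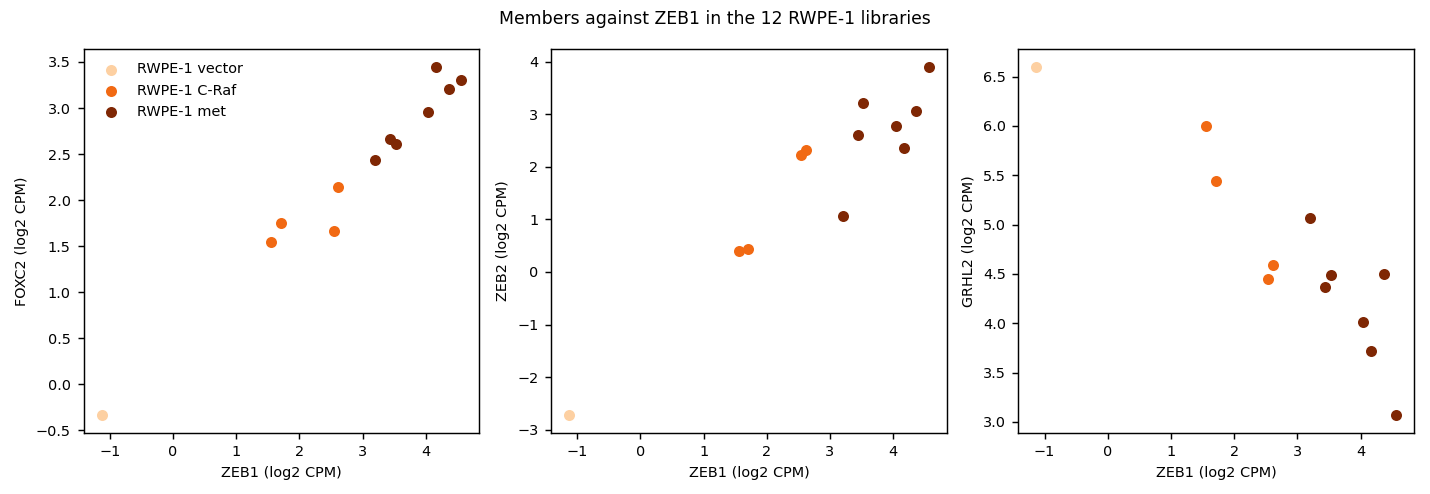
Log2 CPM of FOXC2, ZEB2 and GRHL2 against ZEB1 in the 12 RWPE-1 libraries, coloured by group. FOXC2 and ZEB2 are higher (r = 0.985 and 0.941) and GRHL2 lower (r = -0.901) in libraries with more ZEB1, with the vector control at one end and the metastasis-derived lines at the other.

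Within the 7 metastasis-derived RWPE-1 libraries alone, 9 relations of ZEB1 with the other members were computed. The permutation p-values take the libraries as independent. They share parental cells, come from different tables, and LN1A and LN1B carry the same number in their titles, so independence is not known. TWIST1 rose with ZEB1 (r = 0.930, exact permutation p = 0.00317, adjusted 0.0286; rho = 0.964, p = 0.00278, adjusted 0.025), and r was 0.932 without the 2 libraries farthest from the median of ZEB1, whereas over all 12 RWPE-1 libraries it was 0.233. FOXC2 had r = 0.924 (exact permutation p = 0.00992, adjusted 0.0446) and rho = 0.857 (adjusted 0.107), with r = 0.839 without those 2 libraries. GRHL2 had r = -0.781 (exact permutation p = 0.0306, adjusted 0.0917), which did not hold after adjustment, and ZEB2 had r = 0.694 (adjusted 0.134), which fell to 0.309 without those 2 libraries.

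Junction and polarity genes, the textbook targets of these factors, were counted next. Over both lines 6 of 22 were called lower and 0 higher in metastasis-derived lines, with a list median of -0.37 against 0.03 over all genes, of which 0.736% were called lower. The 3 with the largest change were CLDN7, which encodes a claudin (-1.18 ± 0.21), LLGL2, a polarity gene (-0.82 ± 0.20), and CRB3 (-0.79 ± 0.15). In RWPE-1 edgeR called 0 of 20, 13 were below an unadjusted p of 0.05 (1036 of 13178 genes were), DESeq2 called 5, and the list median was -0.44 against 0.01. In BPH-1, where 16.8% of all genes were called lower and 20.9% higher, 6 of 22 were lower, CLDN7 among them (-1.76), and 2 higher, and the higher ones were DSP, which encodes desmoplakin (4.63 ± 0.89), and PATJ, a polarity scaffold gene listed under its older name INADL (2.40 ± 0.65). CDH1 differed by 0.37 log2 units in BPH-1 and by -0.73 in RWPE-1, and neither passed the test, while the difference between these effects did (1.05). In RWPE-1 it had 217 to 256 CPM in C-Raf parental and 88.6 to 182 in metastasis-derived libraries, which did not overlap. A separation in that direction held for 0.983% of 11998 genes. In BPH-1 the ranges overlapped, at 342 to 347 against 314 to 504 CPM in the deeper libraries.

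**Figure D5:**
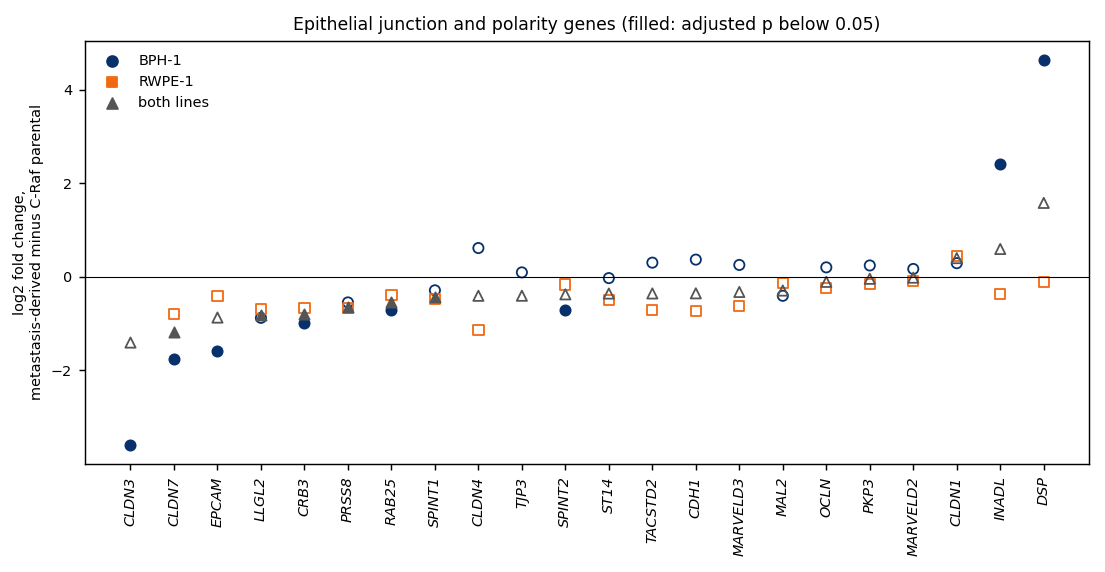
Log2 fold change between metastasis-derived and C-Raf parental cells of 22 junction and polarity genes in BPH-1 (circles), RWPE-1 (squares) and both lines (triangles), filled where the adjusted p was below 0.05. CLDN7, LLGL2 and CRB3 lie below 0 in both lines, and DSP and INADL have log2 fold changes of 4.63 and 2.40 in BPH-1.

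Of 12 mesenchymal genes, 3 were called higher and 0 lower in BPH-1 metastasis-derived cells by edgeR, against 20.9% and 16.8% of all genes. They were VIM, which encodes vimentin (6.17 ± 0.92), S100A4 (2.50 ± 0.36) and the smooth muscle gene TAGLN (2.05 ± 0.35). Below an unadjusted p of 0.05 were 6 of the 12 and 6574 of all 13444 genes. DESeq2 called 6, against 47.2% of genes. VIM had 2, 6 and 6 counts in the BPH-1 C-Raf parental libraries, so the size of its change rests on few counts. It had 135, 66 and 644 in the deeper metastasis-derived libraries, and passed the filter on low counts only through these. In RWPE-1, edgeR called 0 of 11, 3 were below an unadjusted p of 0.05 (1036 of 13178 genes were) and DESeq2 called 1 (1.28% of genes).

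Of 12 other epithelial transcription factors tested in BPH-1, 6 were called higher in metastasis-derived cells and 0 lower by edgeR, against 20.9% and 16.8% of all genes. Among them were GRHL1 (4.61 ± 0.95) and GRHL3 (3.68 ± 0.67), relatives of GRHL2, and ELF5 (7.47 ± 1.71). Below an unadjusted p of 0.05 were 8 of the 12 and 6574 of all 13444 genes. DESeq2 called 9, against 47.2% of genes, and the list median was 1.48 against 0.07 over all genes. ELF5 had 0, 1 and 2 counts in the C-Raf parental libraries, so the size of its change rests on few counts. It had 0.690 to 17.3 CPM in the deeper metastasis-derived libraries, and passed the filter on low counts only through these. In RWPE-1 edgeR called 0 of 10, 3 were below an unadjusted p of 0.05 (1036 of 13178 genes were) and DESeq2 called 0. Among other EMT factors, KLF8 (4.49 ± 0.77) and TCF4 (3.11 ± 0.38) were higher and TWIST2 (-2.06 ± 0.26) was lower in BPH-1, where 3 were higher and 2 lower of 13, against 20.9% and 16.8% of all genes. In RWPE-1 edgeR called 0 of 12, as did DESeq2, with 0 below an unadjusted p of 0.05. HMGA2, an architectural factor of EMT, was the only one of the 16 called with C-Raf over both lines (1.39 ± 0.23).

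Partners and regulators of the members were counted against the same 37.7% of genes called in BPH-1. Of 11 other EMT splicing regulators, 1 was called in BPH-1 metastasis-derived cells, PTBP1 (-0.68 ± 0.20), and 0 of 10 in RWPE-1 by edgeR, with 1 below an unadjusted p of 0.05 and 0 by DESeq2. Of 12 corepressors and ubiquitin-pathway genes that act on SNAIL and ZEB proteins, 4 were higher and 2 lower in BPH-1, led by SIAH1 (1.83 ± 0.16), FBXW7 (1.78 ± 0.42) and FBXL14 (-1.68 ± 0.31). In RWPE-1 edgeR called 0 of 12, with 1 below an unadjusted p of 0.05 and 0 by DESeq2.

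In the 3 low-depth libraries little besides ZEB2 could be read. ZEB1 had 5, 0 and 0 counts in BONE R071, R074 and R075, where 0 counts allow up to 22.7 and 27.0 CPM. GRHL2 had 0, 2 and 0 counts, ESRP1 6, 6 and 1, ESRP2 0, 13 and 4, FOXC2 6, 0 and 0, OVOL1 0, 1 and 0 and SNAI2 1, 0 and 1. SNAI1 and TWIST1 had 0 counts in all 3, which allows up to 6.46, 22.7 and 27.0 CPM. No direction was drawn from these counts.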

How the data were processed

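RNA sequencing of 24 libraries was analysed from 4 tables of expected counts per gene. The authors made these deposited expected counts with the TOIL pipeline and RSEM, and the submitters' notes list cutadapt, FastQC, STAR, RSEM and hg38. The annotation, tool versions and use of strand in counting are not given in the sources used here. Expected counts were rounded to whole numbers and restricted to 19203 protein-coding symbols (GENCODE 29). Libraries BPH1-CRAF BONE R071, R074 and R075 were left out of the fits for low depth.

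Differences were tested with edgeR 4.0.16 (R 4.3.3) by the quasi-likelihood test after TMM scaling and filterByExpr, with Benjamini-Hochberg adjustment over all genes tested and calls below 0.05. DESeq2 1.42.0, other filters and scalings, batch terms and leaving out each library were alternatives. Errors of fold changes are SE. For edgeR each was derived as the absolute log2 fold change divided by the square root of its F statistic. They are therefore approximate, above all for genes with few counts. The edgeR fit was also run on simulated counts for C-Raf against vector control in BPH-1 and metastasis-derived against parental in each line. Each gene had the same spread in both groups. The fits over both lines, between lines and of the difference between effects were not simulated, nor was unequal spread between groups. Intervals are 95% Wilson intervals and, like the limit that 0 counts allow (3 counts), cover counting error only.

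The 10 members and the gene lists (other EMT factors, other epithelial factors, junction and polarity genes, mesenchymal genes, splicing regulators, corepressors and stability genes) were chosen with earlier results of these data known. Named were all members, up to 3 called genes of each list with the largest change (mean at or above 1 CPM), and the 2 genes most like each member; CDH1 and VIM between the cell lines, and PATJ, were named after their values were seen. Promoter letters come from RefSeq (GRCh38.p14). BPH-1 replicate numbers did not pair the libraries. An item withheld from this work is not reported here.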

Additional observations from a re-analysis of the deposited data

Results flagged for a closer look

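Each of the 10 members was examined in the groups of 4, 6 and 7 libraries for a library far from the others. Of these 30 sets of values, 4 held one. The cut-off flags about 1 in 20 sets of independent normal values. These sets share libraries and mix low and high depth, so no comparison with chance can be drawn. The BPH-1 metastasis-derived group of 6 includes the 3 low-depth libraries, in which ZEB1 had 5, 0 and 0 counts, SNAI2 1, 0 and 1 and FOXC2 6, 0 and 0. Those far from the others were ZEB1 in BPH1-CRAF BONE R071 (10.8 CPM, from 5 counts), SNAI2 and FOXC2 in BPH1-CRAF THYMUS R075 (132 and 46.5 CPM) and OVOL1 in RWPE-1 C-Raf parental replicate 4 (0.913 CPM, the other 3 being at 1.07 to 1.08).

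The metastasis effect differed between the cell lines, by the test of the difference itself in edgeR, for ZEB2 (5.45 log2 units, BPH-1 minus RWPE-1), OVOL1 (3.39), SNAI2 (1.72) and TWIST1 (-1.001).

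The low-depth libraries, which entered none of the main fits, held ZEB2 above the highest vector control library of BPH-1 (0.194 CPM), at 755 CPM in BONE R071, 483 in BONE R074 and 693 in BONE R075. ZEB1 in BONE R071, at 10.8 CPM, was above its highest vector control library (0.166 CPM). The source of these reads was not tested.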

How the results depend on the processing

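Over 67 tested member values and 1341 alternatives, 1265 kept direction and side of the threshold, 12 lost a call, 32 gained one and 32 changed sign, 0 of these for a called member. The counts of members called moved as follows, and the cause was not tested. Between C-Raf parental and vector control over both lines, DESeq2 and a fit of the 2 stages alone each called 1. Between metastasis-derived and C-Raf parental lines, DESeq2, all genes of the tables and ComBat-seq each called 3, and at least 10 counts in every library left 0, since ZEB1 was then not tested; leaving out 1 library gave 1 to 3. In BPH-1 at least 10 counts gave 1, since ZEB2 was then not tested. Keeping the low-depth libraries there also gave 1, and leaving out 1 library 1 to 5. In RWPE-1 DESeq2 called 2. For the difference between lines, keeping the low-depth libraries gave 2, and leaving out 1 library 2 to 5. Against the RWPE-1 vector control, the C-Raf parental library of its own table alone gave 0.42 for SNAI2, -0.60 for GRHL2, -0.28 for ESRP1 and -0.077 for ESRP2. The fit with a replicate block in BPH-1 (C-Raf against vector control) called 4 members, as without it. Same-numbered libraries had correlations of -0.035, -0.074 and -0.061, so they share only a number.

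Sign changes, all log2: C-Raf against vector control, 2 stages alone, TWIST1 0.019. Metastasis-derived against parental, both lines: ESRP2 0.0051 with at least 10 counts, TWIST1 0.15 and ESRP2 0.0084 with ComBat-seq. ESRP1 in BPH-1 was -0.41 with the low-depth libraries. With a table term in RWPE-1, SNAI1 was 0.025 and ESRP2 -0.0008. Leaving out 1 library, the ranges for C-Raf against vector control were -0.21 to 1.78 for ZEB1, -0.15 to 0.026 for TWIST1, -1.17 to 1.34 for OVOL1 and -0.16 to 0.27 for ESRP1, and in BPH-1 -0.014 to 0.066 for SNAI2 and -0.015 to 0.043 for ESRP1. For metastasis-derived lines they were -0.15 to 0.058 for TWIST1 and -0.15 to 0.0499 for ESRP2, in BPH-1 -1.36 to 0.77 for FOXC2 and -0.51 to 0.17 for ESRP2, and in RWPE-1 -0.19 to 0.20 for SNAI1 and -0.072 to 0.20 for ESRP2. For the difference between lines they were -0.12 to 0.65 for ZEB1 and -0.56 to 0.085 for ESRP2. In BPH-1 before metastasis ZEB1 and ZEB2 had 2 to 7 counts a library, in libraries of 25511224 to 32878654 protein-coding counts. The single RWPE-1 vector control allows no test.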
